A study of Mus musculus with 12 samples.

Results

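MYC, its partner MAX and the MXD proteins form a network of DNA-binding factors, and their transcripts were followed in spleen erythroid precursors of mice carrying 4 genotype labels. The 10 members are Myc, Mycn, Mycl, Max, Mxd1, Mxd3, Mxd4, Mxi1, Mnt and Mlx, chosen by name as genes with a probe set annotated to that symbol alone. Each had 1 such probe set, and all 10 passed the filter on dim signals, among 12980 genes tested. RNA came from cells sorted by flow cytometry for Ter119, a surface marker of the erythroid lineage, and for high CD71, the transferrin receptor, from the spleens of mice 3 months old. The 12 arrays fell into 4 groups of 3 biological replicates, labelled WT for wild type, E2f8 KO and Rb KO for the single knockouts, and DKO for mice lacking both genes. The retinoblastoma protein, encoded by Rb1, holds E2F factors in check, and the atypical family member E2F8 acts as a repressor. The alleles, any Cre driver and the strain were not given in the sources used here.

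MYC proteins bind DNA as dimers with MAX at the sequence CACGTG, called an E-box, and activate genes of ribosome production, nucleotide synthesis and growth. The MXD proteins, MXI1 and MNT also dimerise with MAX at E-boxes, but recruit the SIN3 corepressor with its histone deacetylases and repress. MLX is a MAX-like partner of some MXD proteins, of MNT and of the glucose-sensing Mondo factors. In red cell development MYC is high in dividing early precursors, and its decline accompanies maturation.

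The cells carried strong erythroid signal, and the arrays also differed in signal of other blood cells. Of 17 erythroid markers, 12 were measured, that is, kept by the filter on the mean over all arrays. None of the 12 lay below the filter level in any group, an outcome that this selection favours. Their mean log2 signal ranged from 11.97 to 12.84 over the arrays. The mean of 14 of 15 B cell markers ran from 10.49 to 11.86 for WT, from 9.92 to 12.06 for Rb KO, from 7.85 to 8.24 for E2f8 KO and from 6.32 to 7.48 for DKO. Their summed level, as the log2 of the summed signal, ranged from 14.89 to 16.07, 14.40 to 16.15, 12.43 to 12.85 and 10.35 to 11.67 in the same order, and 3 of the 14 lay below the filter level in DKO and none elsewhere. The mean of 15 of 17 granulocyte markers ran from 6.30 to 6.45 for WT, from 6.82 to 6.89 for Rb KO, from 8.11 to 8.56 for E2f8 KO and from 6.83 to 10.21 for DKO, with 3 of the 15 below the filter level in WT and 3 in Rb KO. Their summed level ran from 10.65 to 10.74, from 11.37 to 11.82, from 13.07 to 13.64 and from 11.47 to 15.30 in that order. The mean of 9 of 16 T and NK cell markers ran from 7.84 to 8.02 for WT, from 7.11 to 8.19 for Rb KO, from 6.33 to 6.49 for E2f8 KO and from 5.95 to 6.10 for DKO, with 0, 0, 1 and 3 of the 9 below the filter level. Their summed level ran from 11.32 to 11.72, from 10.46 to 11.88, from 9.57 to 9.81 and from 9.21 to 9.43. The mean of all 7 plasma cell markers ran from 7.94 to 8.30, from 7.35 to 8.48, from 7.23 to 7.37 and from 6.39 to 6.76 in that order, with 0, 0, 2 and 2 below the filter level. Their summed level ran from 11.61 to 11.89, from 10.99 to 12.19, from 11.17 to 11.42 and from 10.25 to 10.90. In sorted bulk cells, a change in the number of cells of a type and in the RNA per cell cannot be told apart.

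The knocked-out genes themselves gave signals that followed their labels only in part. Log2 signals of Rb1 in WT arrays were 13.02, 12.74 and 12.71, and in Rb KO arrays 12.53, 12.33 and 12.39. They were 11.74, 11.68 and 11.72 with the E2f8 KO label and 12.23, 11.98 and 12.17 with the DKO label. Rb1 thus lay below WT in every Rb KO and DKO array, at differences of -0.41 and -0.70 (limma adjusted p = 0.394 and 0.000483). Its lowest signals, however, were in the arrays labelled E2f8 KO. Those of E2f8 were 12.28, 11.70 and 11.88 for WT, 12.36, 12.52 and 11.68 for Rb KO, 12.89, 12.81 and 12.74 for E2f8 KO and 13.13, 13.17 and 13.09 for DKO, highest where the label names its knockout. The sources used here do not place these probe sets relative to the deleted parts, so every genotype name below is the label of an array and every direction rests on it. Xist had 5.22 in E2f8 KO replicate 3 and 3.99 in DKO replicate 3 against 11.30 to 12.18 in the other arrays. Replicates correlated across probe sets with Pearson's r from 0.92 to 0.992.

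Promoter letters bear on this network because its members bind E-boxes and the labels concern E2F regulation. RefSeq promoter windows on GRCm38.p6, each from 250 bases before to 50 after a transcript's start, were found for 9 of the 10 members, in 11 windows, and not for Myc. The E-box CACGTG, which reads the same on both strands, occurred in the windows of 4 members, Mxd4, Mnt, Mlx and Max, and in 7.15% of all 32851 windows. The E2F letters TTCCCGC, the variant TTGGCGC, the variant TTCGCGC and the variant TTGCCGC, searched on both strands, occurred in 3 members, Mxd3, Mycn and Mxi1, and in 9.57% of all windows. Mycn held 3 matches, of which 2 overlapped each other, and Mxi1 held 1 match in 1 of its 3 windows. Mycl and Mxd1 held neither set of letters in these windows. The 3 promoters printed belong to members whose transcripts changed below, from 197 bases before to 3 after the start, on the gene's strand, with the matched letters in capitals. For Mxd3 (chr13:55329729-55329928, minus strand) the capitals are TTCCCGC on the opposite strand, at positions -136 to -130 from the start. For Mnt (chr11:74830727-74830926, plus strand) and Max (chr12:76962246-76962445, minus strand) they are the E-box, at positions -123 to -118 in Mnt and across the start in Max.
Mxd3: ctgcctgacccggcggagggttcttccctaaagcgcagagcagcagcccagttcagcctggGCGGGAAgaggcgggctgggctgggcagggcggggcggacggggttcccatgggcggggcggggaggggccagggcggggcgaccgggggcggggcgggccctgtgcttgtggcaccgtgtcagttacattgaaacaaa
Mnt: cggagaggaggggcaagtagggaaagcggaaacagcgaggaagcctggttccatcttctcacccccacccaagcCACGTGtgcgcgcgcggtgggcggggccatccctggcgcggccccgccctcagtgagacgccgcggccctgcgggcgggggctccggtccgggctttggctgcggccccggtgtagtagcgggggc
Max: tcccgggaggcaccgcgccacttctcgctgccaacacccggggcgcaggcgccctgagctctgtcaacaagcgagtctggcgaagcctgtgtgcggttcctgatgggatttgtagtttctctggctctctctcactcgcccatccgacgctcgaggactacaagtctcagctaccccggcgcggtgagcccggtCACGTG

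The members split by comparison. Against WT, the antagonist genes Mxd3, Mxi1 and Mnt rose and Max fell, both in arrays labelled E2f8 KO and in arrays labelled DKO, while Myc, Mycn and Mycl did not pass the test in either. In E2f8 KO against WT, 3 of 10 members were higher and 1 lower at an adjusted p under 0.05, beside 11.9% of all genes higher and 14.2% lower. In DKO against WT the counts were again 3 and 1, beside 20.6% and 17.6% of all genes. Over both directions, 26.1% and 38.2% of all genes were called, so 4 of 10 members is close to the share over all genes in DKO. The count over all genes in E2f8 KO against WT, 3388, was 1538 without WT replicate 2 and at most 4377, without Rb KO replicate 1. The median difference of the members was -0.11 in E2f8 KO and -0.17 in DKO against WT, beside 0.06 and 0.00 over all genes. Groups did not overlap for 5 of 10 members in E2f8 KO against WT and 6 in DKO against WT, beside 45.8% and 45.9% of all genes. Tests were limma fits over all 12 arrays, two-sided and adjusted by Benjamini-Hochberg over the 12980 genes, and these comparisons share the WT arrays.

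**Figure D1:**
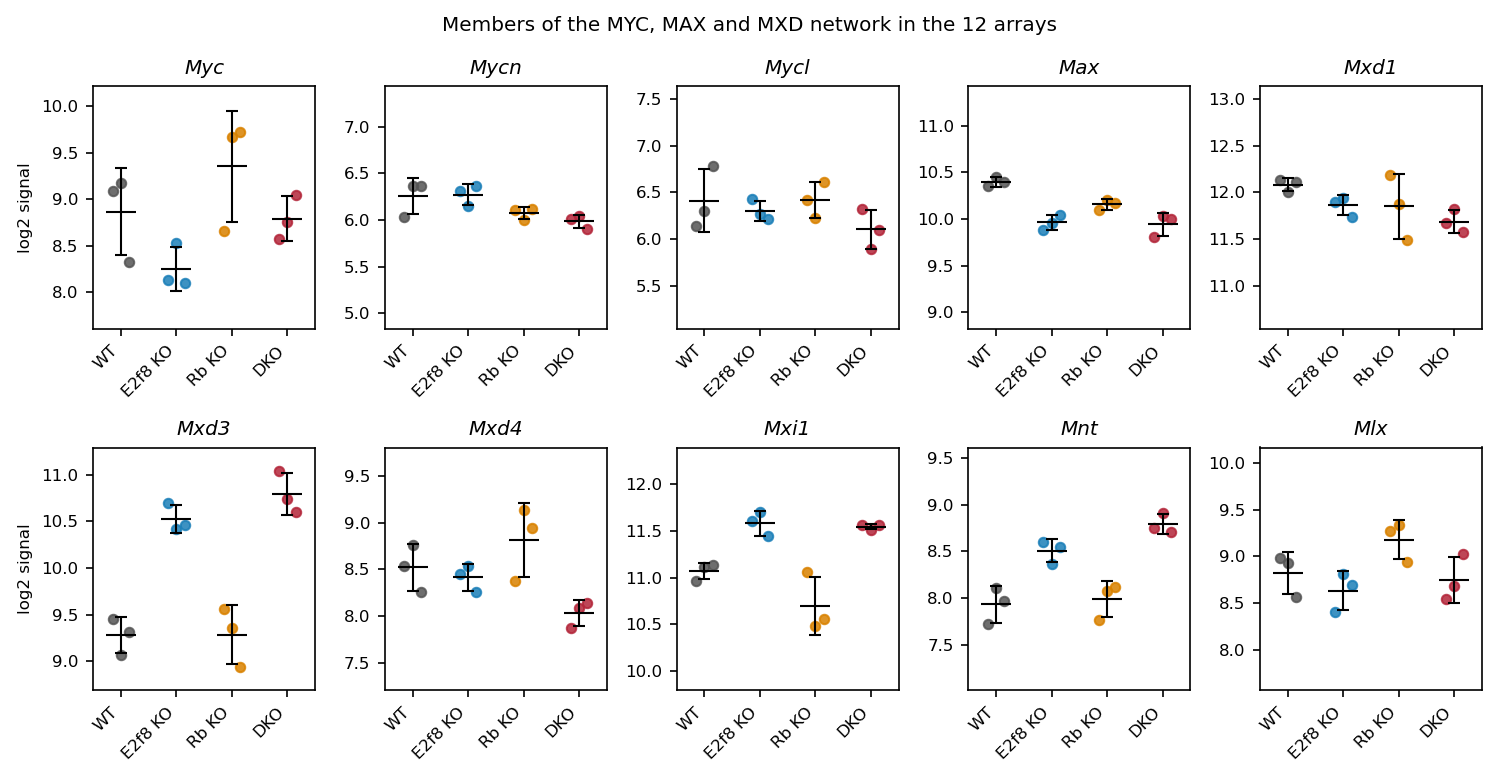
Log2 signal of the 10 members in each of the 12 arrays, by genotype label, with 1 point per array and the group mean and SD as bars; every panel spans the same range. Mxd3 separates the groups most widely, with E2f8 KO and DKO arrays at 10.42 to 11.04 and WT and Rb KO arrays at 8.94 to 9.56.

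Mxd3, an antagonist known to be expressed in dividing cells around S phase, changed most among the members. WT arrays had log2 signals of 9.45, 9.07 and 9.32, against 10.70, 10.42 and 10.46 with the E2f8 KO label. Rb KO arrays had 9.56, 9.35 and 8.94, while DKO arrays had 11.04, 10.74 and 10.60. Every array labelled E2f8 KO or DKO lay above every array of the other labels. Mxd3 was 2.37-fold higher in E2f8 KO than in WT (log2 difference 1.25 ± 0.19 SE, n = 3 against 3, limma adjusted p = 0.00129). In DKO it was 2.86-fold higher than in WT (1.52 ± 0.19, limma adjusted p = 9.89e-05). Against Rb KO the difference was 1.51 in DKO (limma adjusted p = 0.000165) and 1.24 in E2f8 KO (limma adjusted p = 0.00141). Between Rb KO and WT it was 0.01, with a 95% interval from -0.41 to 0.42. The Mxd3 call held in each single-array omission in these 4 comparisons, with differences from 1.14 to 1.33 in E2f8 KO against WT and from 1.39 to 1.61 in DKO against WT. With each array's B cell list mean added to the fit as a covariate, the differences were 0.56 and 0.55 against WT (limma adjusted p = 0.452 and 0.439) and 0.49 and 0.50 against Rb KO for DKO and E2f8 KO (limma adjusted p = 0.546 and 0.611). The slope of that covariate comes from differences within groups and leans on Rb KO replicate 1.

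Mnt, a broadly expressed repressor that competes with MYC for MAX, was the second antagonist that rose. WT arrays had log2 signals of 7.72, 8.11 and 7.97, against 8.60, 8.36 and 8.55 with the E2f8 KO label. Rb KO arrays had 7.76, 8.07 and 8.12, while DKO arrays had 8.75, 8.91 and 8.71. The DKO arrays lay above all others, the E2f8 KO arrays came next, and those of WT and Rb KO overlapped. Mnt was 1.81-fold higher in DKO than in WT (0.86 ± 0.17 SE, n = 3 against 3, limma adjusted p = 0.00156) and higher by 0.81 than in Rb KO (limma adjusted p = 0.00267). In E2f8 KO it was higher than in WT by 0.57 ± 0.17 (limma adjusted p = 0.0248) and than in Rb KO by 0.52 (limma adjusted p = 0.0358). The E2f8 KO against WT call was lost without WT replicate 1, E2f8 KO replicate 1 or E2f8 KO replicate 3, at 0.46, 0.52 and 0.55 (limma adjusted p = 0.0734, 0.0959 and 0.0794). The call against Rb KO was lost without any single array of either group, at 0.41 to 0.59. With the B cell covariate the DKO differences were 1.35 against WT and 1.32 against Rb KO (limma adjusted p = 0.0544 and 0.092).

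Mxi1, an MXD family repressor also named Mxd2, had WT log2 signals of 10.97, 11.12 and 11.13, against 11.60, 11.70 and 11.44 with the E2f8 KO label. Rb KO arrays had 11.06, 10.48 and 10.55, while DKO arrays had 11.56, 11.51 and 11.57. All arrays labelled E2f8 KO or DKO again lay above all others, and the WT and Rb KO arrays overlapped only through Rb KO replicate 1. Mxi1 was higher than in WT by 0.51 ± 0.15 SE in E2f8 KO and by 0.48 ± 0.15 in DKO (limma adjusted p = 0.0275 and 0.0264, n = 3 per group). Against Rb KO it rose by 0.89 in E2f8 KO and 0.85 in DKO (limma adjusted p = 0.00226 and 0.00116). The Rb KO against WT difference was -0.37 (limma adjusted p = 0.938). The calls against WT rested on single arrays. In E2f8 KO the call was lost without WT replicate 1 or 2 or E2f8 KO replicate 1 or 2, at 0.46, 0.53, 0.50 and 0.45. In DKO it was lost without WT replicate 1 or 2 or any DKO replicate, at 0.42 to 0.50, and with the B cell covariate the sign turned, to -0.22 (limma adjusted p = 0.721).

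Mxd1 and Mxd4, antagonists that are associated with differentiating cells, did not rise with the other 3. Mxd4 had WT log2 signals of 8.54, 8.76 and 8.26, against 8.45, 8.54 and 8.26 with the E2f8 KO label. Rb KO arrays had 8.38, 9.14 and 8.94, while DKO arrays had 7.87, 8.09 and 8.14, so that every DKO array lay below every other array. Mxd4 fell by 0.79 in DKO against Rb KO (SE 0.21, n = 3 against 3, limma adjusted p = 0.0106), a call lost without Rb KO replicate 2, at -0.63 (limma adjusted p = 0.0566). Against WT the DKO difference was -0.49 ± 0.21 (limma adjusted p = 0.0862), and this one passed without Rb KO replicate 1 (limma adjusted p = 0.0313). Mxd1 gave 12.13, 12.001 and 12.11 for WT, 11.90, 11.94 and 11.74 for E2f8 KO, 12.19, 11.88 and 11.49 for Rb KO, and 11.67, 11.82 and 11.57 for DKO. Both knockout labels of E2f8 lay below WT in every array, but the differences, -0.22 in E2f8 KO and -0.39 ± 0.15 in DKO, did not pass the test (limma adjusted p = 0.319 and 0.0612). The DKO difference passed without Rb KO replicate 1 or 3 (limma adjusted p = 0.0158 and 0.0175).

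Max, the shared partner of MYC and of its antagonists, was the 1 member lower in both comparisons with WT. WT arrays had log2 signals of 10.35, 10.45 and 10.39, against 9.89, 9.96 and 10.05 with the E2f8 KO label. Rb KO arrays had 10.10, 10.21 and 10.17, while DKO arrays had 9.80, 10.03 and 9.996. All WT arrays lay above all other arrays, and the Rb KO arrays lay between them and both remaining groups. Max fell by 0.43 in E2f8 KO (SE 0.13, n = 3 against 3, limma adjusted p = 0.0311) and by 0.46 in DKO (SE 0.13, limma adjusted p = 0.0169). The Rb KO difference from WT, -0.24, did not pass (limma adjusted p = 1). In E2f8 KO the call was lost without WT replicate 2 or any E2f8 KO replicate, at -0.48 to -0.40. In DKO it was lost without WT replicate 2, at -0.43, or DKO replicate 1, at -0.39. With the B cell covariate the differences were -0.24 and -0.18 (limma adjusted p = 0.793 and 0.787), and with a granulocyte list covariate they were -0.52 and -0.54 (limma adjusted p = 0.116 and 0.0754).

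Mlx, the MAX-like partner, gave log2 signals of 8.98, 8.93 and 8.57 for WT and 8.40, 8.81 and 8.69 for E2f8 KO. It gave 9.27, 9.33 and 8.94 for Rb KO and 8.54, 8.68 and 9.02 for DKO. The Rb KO arrays were above the E2f8 KO arrays, and all other pairs of groups overlapped. No Mlx difference passed the test. The widest was -0.55 ± 0.20 SE in E2f8 KO against Rb KO (limma adjusted p = 0.0546), which passed without WT replicate 3 (limma adjusted p = 0.0458).

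**Figure D2:**
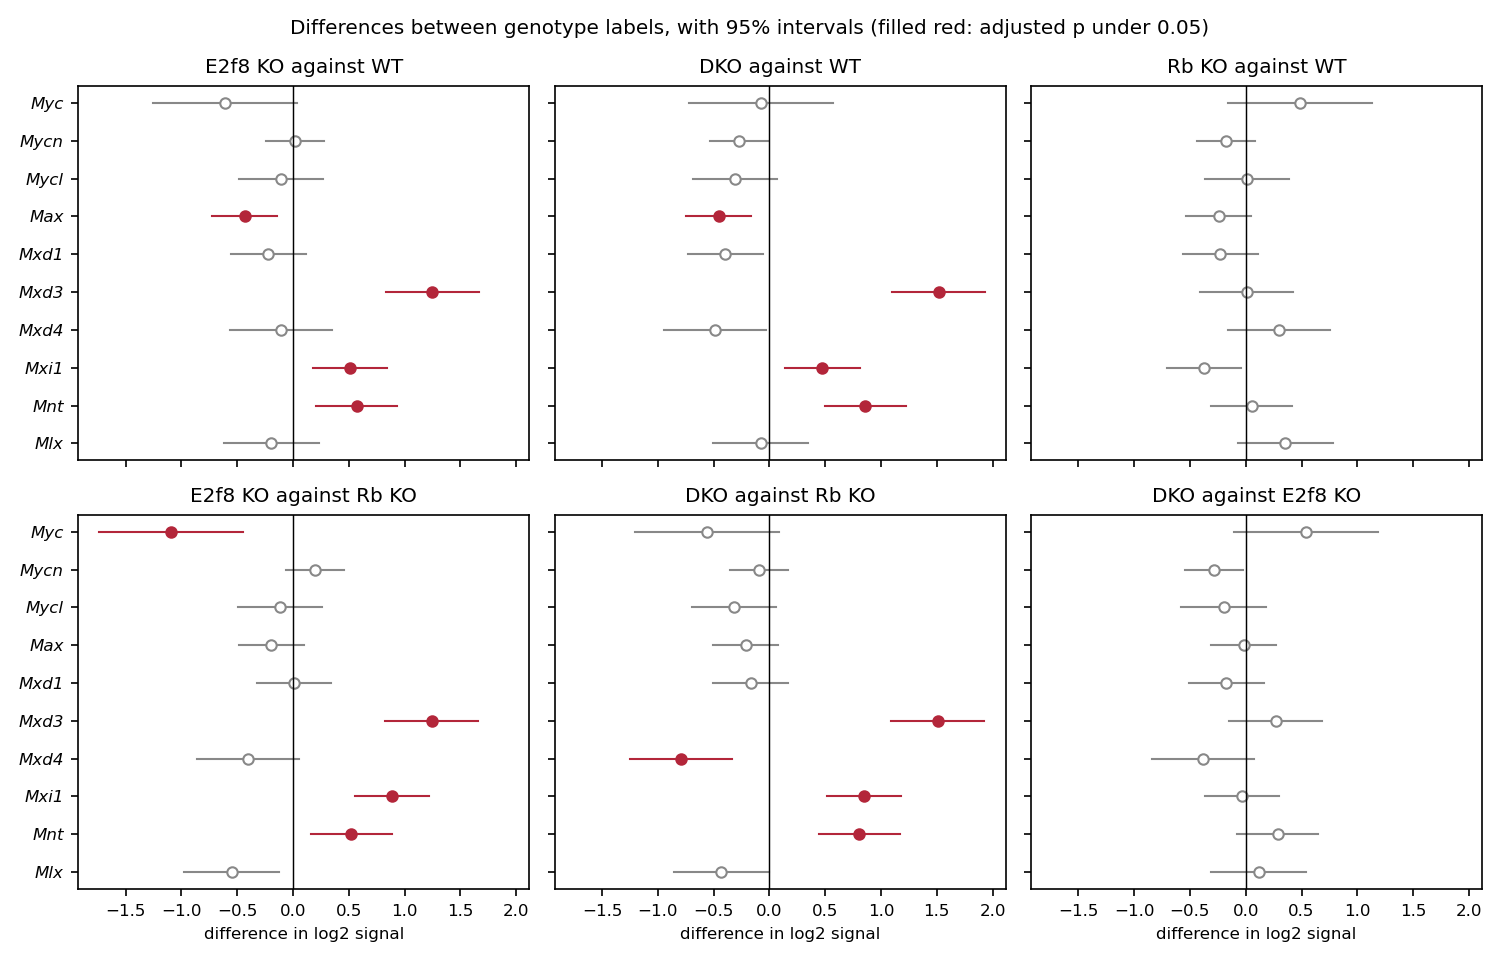
Difference in log2 signal of each member in the 6 pairwise comparisons, as points with 95% intervals; filled red points had an adjusted p under 0.05. Mxd3, Mxi1 and Mnt lie to the right of 0 in each of the 4 comparisons of E2f8 KO or DKO with WT or Rb KO, and no member is filled in Rb KO against WT or DKO against E2f8 KO.

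Myc, the transcription factor that gives the network its name, varied most within groups. WT arrays had log2 signals of 9.09, 9.17 and 8.33, against 8.13, 8.53 and 8.10 with the E2f8 KO label. Rb KO arrays had 8.66, 9.66 and 9.72, while DKO arrays had 8.57, 8.75 and 9.05. WT replicate 3 and Rb KO replicate 1 were each well below their own group, and WT overlapped every other group. Group means were 8.87 ± 0.47 (SD, n = 3) in WT, 8.25 ± 0.24 in E2f8 KO, 9.35 ± 0.60 in Rb KO and 8.79 ± 0.24 in DKO. The 1 Myc difference called was E2f8 KO against Rb KO, where Myc was 2.14-fold lower (-1.10 ± 0.30 SE, limma adjusted p = 0.0168) and the groups did not overlap. That call was lost without E2f8 KO replicate 1 or 3 or Rb KO replicate 2 or 3, at -1.04, -1.02, -0.94 and -0.91. Against WT the differences were -0.61 in E2f8 KO (95% interval -1.26 to 0.03, limma adjusted p = 0.15), 0.48 in Rb KO (-0.16 to 1.13) and -0.07 in DKO (-0.72 to 0.57, limma adjusted p = 0.881). The E2f8 KO difference passed without WT replicate 3, at -0.88 (limma adjusted p = 0.0489), or without Rb KO replicate 1 (limma adjusted p = 0.0493). DKO against Rb KO gave -0.56 (limma adjusted p = 0.167), which passed without Rb KO replicate 1 at -0.90 (limma adjusted p = 0.00886).

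Myc moved with the B cell marker list within WT, Rb KO and DKO, but not with that list alone. In these groups, the replicate with the lowest Myc was also the one with the lowest B cell list mean. These means were 10.49 in WT replicate 3, 9.92 in Rb KO replicate 1 and 6.32 in DKO replicate 1. The plasma cell list mean was lowest in the same replicates, at 7.94, 7.35 and 6.39. So was the mean of 7 early progenitor markers, at 8.53, 8.40 and 8.14. The macrophage and monocyte list mean was lowest there in WT and DKO, but not in Rb KO. In E2f8 KO, Myc was lowest in replicate 3, where the B cell list mean was highest, at 8.24. With the B cell list mean as a covariate, the Myc differences turned sign, to 0.87 in E2f8 KO against WT (limma adjusted p = 0.238) and 1.998 in DKO against WT (limma adjusted p = 0.0164). They were then 1.62 in DKO against Rb KO and 0.49 in E2f8 KO against Rb KO. The direction of Myc in E2f8 KO or DKO, against WT or Rb KO, therefore did not hold across both fits. In the plot of members beside the B cell list, Mxd3 and Mxi1 were high where the list was low. The list means of E2f8 KO and DKO lay apart from those of WT and Rb KO, so the covariate fit extends a within-group slope across that gap. With it, the SE in DKO against WT grew from 0.30 to 0.46 for Myc, from 0.19 to 0.41 for Mxd3 and from 0.15 to 0.34 for Mxi1. What RNA of B cells or of other leukocytes contributes to any of these signals was not tested.

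**Figure D3:**
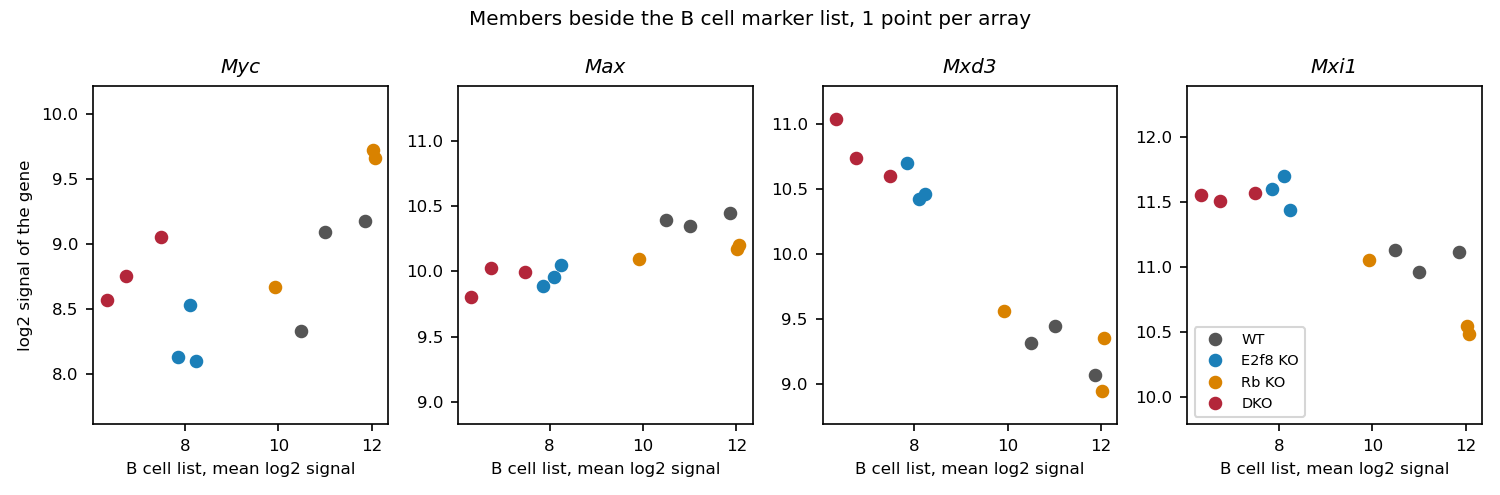
Log2 signal of Myc, Max, Mxd3 and Mxi1 against the mean log2 signal of 14 B cell markers, 1 point per array, coloured by genotype label. The E2f8 KO and DKO arrays lie at list means of 8.24 or less and the WT and Rb KO arrays at 9.92 or more, so label and list change together.

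Mycn and Mycl, the paralogs of Myc that are known from neural and epithelial development, were dim. Mycn ranged from 5.90 to 6.37 and Mycl from 5.89 to 6.79 over the 12 arrays, near the filter level of 5.84. No difference of either passed the test. The widest were -0.29 for Mycn in DKO against E2f8 KO, where the groups did not overlap (limma adjusted p = 0.239), and -0.32 for Mycl in DKO against Rb KO (limma adjusted p = 0.183). Mycn in DKO against WT, -0.27 (limma adjusted p = 0.0932), passed without WT replicate 1, at -0.38 (limma adjusted p = 0.0167).

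With Rb KO as the reference for the same E2f8 KO and DKO arrays, the same 3 antagonist genes were higher. In DKO against Rb KO, Mxd3, Mxi1 and Mnt were higher and Mxd4 lower, beside 19.5% of all genes higher and 17.6% lower (37.1% in all). The 4 of 10 members called there are close to the share over all genes. In E2f8 KO against Rb KO, the 3 were higher and Myc lower, beside 12.2% and 15.6% (27.7% in all). The latter count over all genes, 3601, was 1899 without Rb KO replicate 3 and at most 5023, without Rb KO replicate 1. Groups did not overlap for 5 members in the first (43.6% of all genes) and 7 in the second (47.5%).

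The Rb KO label alone, and its addition to the E2f8 KO label, called no member by limma. In Rb KO against WT, 0 of 10 members and 0.0077% of all genes were called, and 1 member had an unadjusted p under 0.05, with differences from -0.37 for Mxi1 to 0.48 for Myc. Max was the 1 member whose groups did not overlap there, beside 6.28% of all genes. In DKO against E2f8 KO, 0 members and 2.37% of all genes were called, 1 member had an unadjusted p under 0.05, and differences ran from -0.39 for Mxd4 to 0.54 for Myc. Groups did not overlap for 4 members in this comparison, with Myc and Mnt higher and Mycn and Mxd4 lower in DKO, beside 35% of all genes. The interaction, which asks whether the E2f8 label's difference changes with the Rb label, called 0 members and 0.077% of all genes, with 1 member at an unadjusted p under 0.05. These shares of all genes rested on single arrays. The 1 gene called in Rb KO against WT became 139 without Rb KO replicate 1 and 34 without WT replicate 3. The 308 in DKO against E2f8 KO became 82 to 711 over the single-array omissions, lowest without E2f8 KO replicate 1 and highest without Rb KO replicate 1, and the 10 of the interaction became 2 to 49, lowest without WT replicate 1 and highest without Rb KO replicate 1. Its members ranged from -0.69 for Mxd4 (limma adjusted p = 0.847) to 0.34 for Mxi1. The 95% interval of the interaction ran from -0.33 to 0.85 for Mxd3.

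Genes of the SIN3 and NCoR corepressors, the machinery that MXD proteins and MNT recruit, were mostly higher with the E2f8 KO and DKO labels. Of 11 measured genes, 6 rose and 0 fell in E2f8 KO against WT, beside 11.9% and 14.2% of all genes. In DKO against WT, 8 rose and 1 fell, beside 20.6% and 17.6%, with median differences of 0.77 and 0.81 beside 0.06 and 0.00 over all genes. Sin3a, the scaffold that binds MXD proteins, rose by 0.97 ± 0.15 SE and 1.04 ± 0.15 (limma adjusted p = 0.00142 and 0.000264). Sap30, a SIN3 subunit, rose by 1.90 ± 0.38 in E2f8 KO, and Sap18 by 1.36 ± 0.20 in DKO. Rbbp4 and Rbbp7, histone-binding proteins shared with other chromatin complexes, rose by 0.82 and 0.98 in E2f8 KO and by 0.95 and 1.28 in DKO. The gene that fell in DKO was Suds3, a SIN3 subunit, at -0.89, named after its value was seen.

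The MGA and E2F6 form of Polycomb repressive complex 1 (PRC1), in which the MAX partner MGA and an E2F repressor occupy shared promoters, was followed through 9 genes. Of these, 4 rose and 0 fell in E2f8 KO against WT, beside 11.9% and 14.2% of all genes, and 6 rose and 0 fell in DKO against WT, beside 20.6% and 17.6%, with medians of 0.59 and 0.74. Mga itself, counted among the other E-box factors below, did not pass the test, at -0.36 and -0.27 (limma adjusted p = 0.203 and 0.339). E2f6, a repressive E2F, rose by 1.71 ± 0.37 SE and 2.45 ± 0.37 (limma adjusted p = 0.00639 and 0.000294). Rybp, a PRC1 subunit, rose by 1.502 and 1.29. Cbx3, a chromatin reader, rose by 1.11 and 1.34. Without WT replicate 2 or E2f8 KO replicate 2 the count in E2f8 KO against WT was 2, where calls over all genes fell from 3388 to 1538 and 2046.

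Among genes that act on MYC protein stability, Skp2, a ubiquitin ligase subunit that targets MYC, rose by 1.48 ± 0.26 SE in E2f8 KO and 1.98 ± 0.26 in DKO against WT (limma adjusted p = 0.00223 and 0.000113). Usp37, a deubiquitinase that stabilises MYC, rose by 1.41 and 2.31. Gsk3b, a kinase that marks MYC for degradation, rose by 0.82 and 1.18, so that genes of opposite effect on the protein rose together. Of 18 measured genes, 9 rose and 0 fell in E2f8 KO, beside 11.9% and 14.2% of all genes, and 11 rose and 1 fell in DKO, beside 20.6% and 17.6%, with medians of 0.43 and 0.61. The E2f8 KO count was 4 without WT replicate 2, E2f8 KO replicate 1 or E2f8 KO replicate 3, and 5 without E2f8 KO replicate 2. Calls over all genes also fell in these omissions, from 3388 to 1538, 1890, 2209 and 2046 in that order.

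Of 38 measured targets that MYC is known to activate, 6 rose and 1 fell in E2f8 KO against WT, beside 11.9% and 14.2% of all genes. In DKO against WT, 12 rose and 2 fell, beside 20.6% and 17.6%. Their medians, -0.01 and 0.08, were near those over all genes, and their sign changed when single arrays were left out, over ranges from -0.16 to 0.13 and from -0.08 to 0.25. The E2f8 KO count was 2 without WT replicate 2 or E2f8 KO replicate 3, and 3 without E2f8 KO replicate 1 or 2, instead of 7. Calls over all genes in these omissions were 1538, 2209, 1890 and 2046, instead of 3388. Cdc25a, a cell cycle phosphatase, rose by 1.12 ± 0.23 SE and 1.63 ± 0.23 (limma adjusted p = 0.00478 and 0.000175). Nop56, which modifies ribosomal RNA, rose by 0.77 and 1.22, and Paics, an enzyme of purine synthesis, by 0.82 in DKO. Ccnd2, a D-type cyclin, fell by 0.73 and 1.23.

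Of 12 measured genes that MYC is known to repress, 0 rose and 3 fell in E2f8 KO against WT, and 1 rose and 4 fell in DKO against WT, with medians of -0.10 and -0.19. Over both directions these are 3 and 5 of 12, near the 26.1% and 38.2% of all genes called. Gadd45b, a stress response gene, fell by 1.24 and 1.26. Slc40a1, which encodes the iron exporter ferroportin and is abundant in macrophages, fell by 0.58 and 0.86. In Rb KO against WT it differed by -0.95, which did not pass (limma adjusted p = 0.0903). The mean of 15 macrophage and monocyte markers also differed, from 8.92 to 9.68 for WT, from 8.31 to 8.59 for Rb KO, from 8.01 to 8.16 for E2f8 KO and from 6.96 to 7.47 for DKO. Their summed level was 13.58 to 14.53, 12.87 to 13.30, 12.46 to 12.58 and 11.24 to 11.72, with 0, 0, 1 and 1 of the 15 below the filter level, and their part in the Slc40a1 signal was not tested. The E2f8 KO count was 0 without WT replicate 2 or E2f8 KO replicate 2 or 3, where calls over all genes were 1538, 2046 and 2209 instead of 3388. The DKO count was 3 without WT replicate 2 or DKO replicate 3. In DKO against WT, calls over all genes were 3636 without WT replicate 2, the lowest over the single-array omissions, instead of 4952.

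Among 8 other E-box factors and partners, 1 rose and 2 fell in both comparisons with WT, so 3 of 8 were called beside 26.1% of all genes in E2f8 KO and 38.2% in DKO. Mlxip, the Mondo factor that pairs with MLX, fell by 1.92 (SE 0.42) in E2f8 KO and 1.66 (SE 0.42) in DKO (limma adjusted p = 0.00682 and 0.00768). Bhlhe40, a repressor that binds E-boxes, fell by 1.14 and 1.42. Usf2, an activator at E-boxes, rose by 0.89 and 0.90. Of 13 measured MYC coactivator genes, 2 rose and 0 fell in E2f8 KO, and 4 rose and 2 fell in DKO, or 2 and 6 called beside those shares of 26.1% and 38.2%. Wdr5, a chromatin protein that anchors MYC, rose by 1.16 and 1.73, and Cdk9, the kinase that releases paused polymerase, by 0.60 and 0.71. The E2f8 KO coactivator count was 1 without E2f8 KO replicate 2 or 3, where calls over all genes were 2046 and 2209 instead of 3388.

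In the comparisons between knockout labels, these 7 lists gave few or no calls where the Rb label alone differed. In Rb KO against WT none of their genes was called, beside 0.0077% of all genes. In DKO against E2f8 KO, 2 were called, beside 2.37% of all genes. They were Paics at 0.65 ± 0.13 SE and Pim1, a kinase that acts with MYC, at 0.45 (limma adjusted p = 0.0217 and 0.0349). Against Rb KO, the DKO counts were 7 higher and 1 lower for the corepressor genes, 5 and 0 for the PRC1 genes, 11 and 1 for the turnover genes and 12 and 2 for the activated targets, beside 19.5% of all genes higher and 17.6% lower. Without DKO replicate 2, 5 corepressor genes were called there instead of 8. Calls over all genes in DKO against Rb KO, 4819, ran from 3420 to 5789 over the single-array omissions.

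Most calls in these lists were lost with the B cell covariate, as those of the members were. The SEs of Myc, Mxd3 and Mxi1 in DKO against WT grew in that fit, so a lost call need not mean a smaller difference. With the covariate, the corepressor medians were 0.35 in E2f8 KO and 0.29 in DKO against WT, instead of 0.77 and 0.81, with 1 gene called in each. The PRC1 medians were 0.52 and 0.91, instead of 0.59 and 0.74. The turnover medians were 0.40 and 0.65, instead of 0.43 and 0.61. By limma, 0 PRC1 or turnover genes were called in these 4 cases. The activated targets then had medians of 0.45 and 0.70, with 0 and 6 called. The medians of the other E-box factors turned to 0.38 and 0.67, and 0 of them were called by limma, so that the calls of Mlxip, Bhlhe40 and Usf2 were lost. The repressed targets (-0.14 and -0.32) and the coactivators (0.26 and 0.41) also had 0 called by limma in both comparisons. With the granulocyte covariate, the counts in E2f8 KO and DKO against WT were 3 and 5 for the corepressors, 1 and 3 for the PRC1 genes, 2 and 5 for the turnover genes and 1 and 7 for the activated targets. They were 2 and 3 for the repressed targets, 2 and 1 for the other E-box factors and 0 and 1 for the coactivators. Over all genes, the B cell covariate gave 264 calls in E2f8 KO against WT and 1039 in DKO against WT, instead of 3388 and 4952. The granulocyte covariate gave 1501 and 2813 in the same comparisons.

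**Figure D4:**
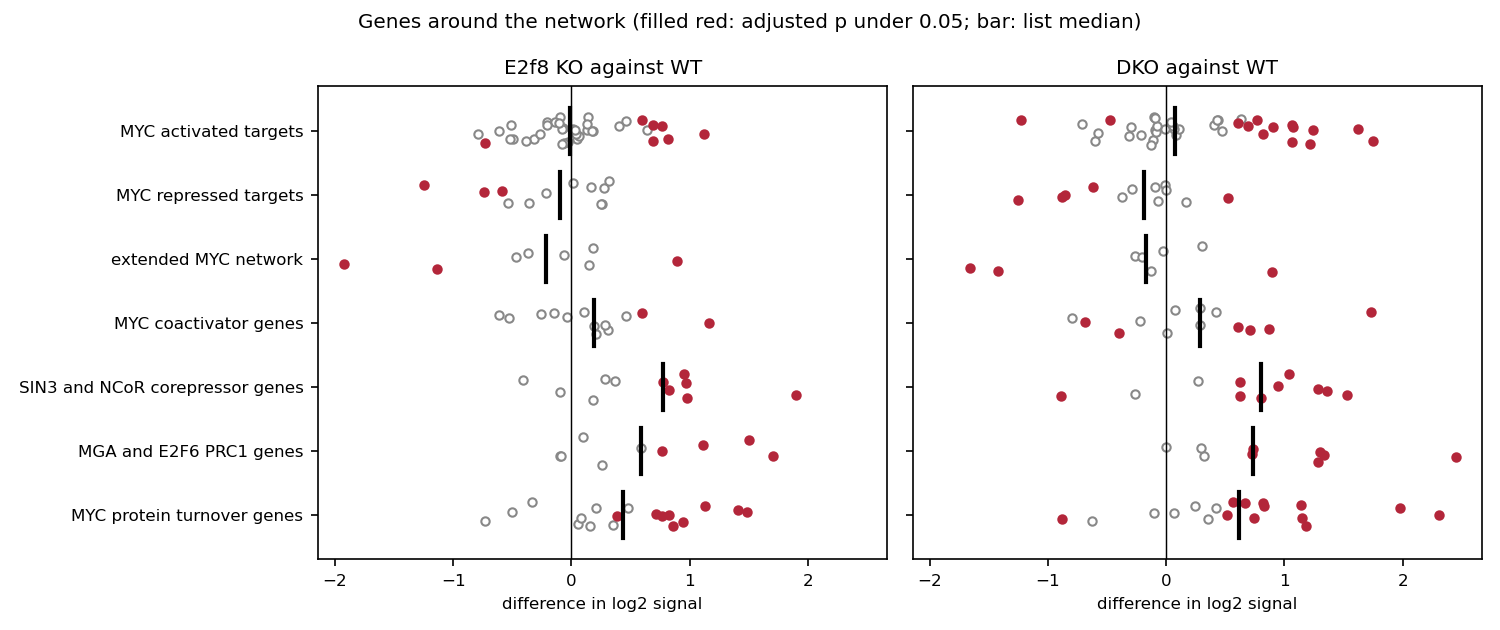
Difference in log2 signal of each measured gene of 7 lists around the network, for E2f8 KO and DKO against WT; filled red points had an adjusted p under 0.05 and black bars are list medians. The corepressor, PRC1 and turnover lists have medians from 0.43 to 0.81, while the bars of the activated targets lie at -0.01 and 0.08.

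Among the members themselves, Mxd3 correlated over the 12 arrays with Mxi1 (Pearson's r 0.856) and with Mnt (0.852), and inversely with Max (-0.863). Myc was closest to Mlx (0.701) and opposite to Mxi1 (-0.762). The 12 points share 4 labels and the marker differences above, so these values are descriptions. Over the same arrays, the genes most like Mxd3 were Tmed2 (0.991), Apex2 (0.989) and Bclaf3 (0.987). Those most like Myc were Stat2 (0.966), Foxred2 (0.963) and Nuak2 (0.953). Mnt was most like Mir17hg (0.958), Top3a (0.951) and Ccdc88c (0.947), and Mxi1 most like Plcl2 (0.974), Pip5k1b (0.965) and Gclm (0.965). For Max these were Ap3m1 (0.959), Fam234a (0.954) and Acp2 (0.936), and for Mxd4 Foxj2 (0.952), Egr2 (0.951) and Tpst2 (0.948).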

How the data were processed

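The deposited table gives log2 signals per probe set and array, a scale inferred from its range of 1.07 to 14.84. MAS5 is named per the submitters' processing notes, and background correction and normalization between arrays were not given in the sources used here. Array medians lay between 6.22 and 6.35, and the number of arrays limits precision. Of 35557 probe sets, 21789 had 1 gene symbol in GEO's platform annotation, 1621 several and 12147 none listed. The dimmest 40% (below 5.84) and those without exactly 1 symbol were removed, and the brightest probe set stood for a gene. Differences were fitted by limma 3.58.1 under R 4.3.3 from a model of 1 mean per label, 8 residual degrees of freedom, a variance trend and Benjamini-Hochberg adjustment over 12980 genes. The fit was tested on simulated data. Those data had independent noise for each gene and array, and lacked the marker differences between these arrays. Members, lists and tests were chosen with earlier results of these data known. The text names all members, up to 4 genes of a list with the smallest p, 3 genes most like each called member, and the targeted genes. Alternatives were other filters, scalings and thresholds, array weights, a replicate block, marker covariates and single-array omissions. The fits without pairs of arrays that stand apart, and the covariates for the lists, were added after seeing the data.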

Additional observations from a re-analysis of the deposited data

How the results depend on the processing

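The 4 Mxd3 calls held in every alternative run except the B cell covariate, as did those of Mnt in DKO against WT and against Rb KO and of Mxi1 in both comparisons with Rb KO. With that covariate the number of members called was 0 in E2f8 KO against WT, 2 in DKO against WT, 0 in DKO against Rb KO, 0 in E2f8 KO against Rb KO and 1 (Myc) in DKO against E2f8 KO, instead of 4, 4, 4, 4 and 0. Both in DKO against WT were new calls, Myc at 1.998 and Mxd1 at -1.20 (limma adjusted p = 0.0164 and 0.0343), and none of Mxd3, Mxi1, Mnt and Max passed there. Over all genes, that covariate gave 264 calls in E2f8 KO against WT, 1039 in DKO against WT and 594 in DKO against Rb KO. It gave 88 in E2f8 KO against Rb KO and 1648 in DKO against E2f8 KO, where the main fit had 308. Myc then turned to 0.87 in E2f8 KO against WT, 1.998 in DKO against WT, 1.62 in DKO against Rb KO and 0.49 in E2f8 KO against Rb KO. Mxd4 turned to 0.78 in DKO against WT and 0.54 in DKO against Rb KO, and Mxi1 to -0.22 in DKO against WT. The granulocyte covariate left 1 call in E2f8 KO against WT and 2 in DKO against WT. At an adjusted p under 0.01, the member counts were 1 in E2f8 KO against WT and 2 in DKO against WT. In E2f8 KO against Rb KO the count was also 2. Calls over all genes in these comparisons were then 1410, 3255 and 1652, instead of 3388, 4952 and 3601. At 0.10 the DKO against WT member count was 7. Leaving out both arrays of low Xist also gave member counts of 1, 2 and 2 in the same order. Calls over all genes were then 2099 in E2f8 KO against WT and 2337 in E2f8 KO against Rb KO. Single-array omissions gave 1 to 5 members in E2f8 KO against WT and 2 to 6 in DKO against WT. They gave 2 to 5 in E2f8 KO against Rb KO and 3 to 5 in DKO against Rb KO. The Myc difference in DKO against WT ran from -0.34 to 0.079 over them. Other scalings moved the median of all genes by less than 0.1, but they moved calls near the threshold. Centring arrays on the median ended those of Mxi1 in E2f8 KO against WT (0.49, limma adjusted p = 0.0529) and of Max in DKO against WT (-0.41, limma adjusted p = 0.0519). Quantile normalization added Mxd1 and Mxd4 in DKO against WT (limma adjusted p = 0.0251 and 0.0306) and Mlx in DKO and E2f8 KO against Rb KO (limma adjusted p = 0.0115 and 0.0184). Without a filter, Max in E2f8 KO against WT and Mnt in E2f8 KO against Rb KO were lost (limma adjusted p = 0.0518 and 0.0532). Fitting 2 groups alone ended Max in DKO against WT and Mnt in E2f8 KO against Rb KO (limma adjusted p = 0.0551 and 0.0564) and added Mxd1 in DKO against WT (limma adjusted p = 0.0236). Removing the dimmest 60% added Mlx in E2f8 KO against Rb KO (limma adjusted p = 0.043). Array weights added Myc in E2f8 KO against WT and DKO against Rb KO (-0.74 and -0.79, limma adjusted p = 0.00995 and 0.00864). They also added Mxd4 and Mycn in DKO against WT (limma adjusted p = 0.0181 and 0.0431) and Mlx in DKO and E2f8 KO against Rb KO (limma adjusted p = 0.0442 and 0.0051). With them, 149 genes of all were called in Rb KO against WT. The cause was not tested.

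Replicate numbers did not pair the arrays throughout. Of 18 same-numbered pairs, 7 had correlated deviations over 0.1 (range -0.379 to 0.57, highest for replicate 2 of WT and Rb KO). In total, 0 arrays correlated best with their own number in every other group at once. Some did so in a single group, such as E2f8 KO replicate 1 within DKO (0.407). With the replicate number as a block, 5 members were called in DKO against WT and 4 in each of the other 3 comparisons that had calls, the added call being Mxd1 at -0.39 (limma adjusted p = 0.0464).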

Other observations

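Among 7 measured markers of early blood progenitors, 1 rose and 4 fell in E2f8 KO against WT and in DKO against WT, where 26.1% and 38.2% of all genes were called, with medians of -0.59 and -0.56 over the list. Kit, the receptor for stem cell factor, fell by 1.08 (SE 0.21) and 1.40 (SE 0.21) (limma adjusted p = 0.00402 and 0.000301). The gene that rose was Myb, a factor of dividing progenitors, by 0.89 and 1.09. These genes were singled out after their values were seen. Of 12 erythroid markers, 3 rose and 1 fell in each of these comparisons, and 7 rose and 1 fell in DKO against Rb KO. The shares of all genes called there were 26.1%, 38.2% and 37.1%.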
